A study of Mus musculus with 14 samples.

Results

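The genes described here are 6 complement components and regulators, *C3*, *Cfb*, *C2*, *C4b*, *C1s* and *Serping1*. They were taken by name: every probe that is not a control and carries one of these gene names was used, which gave 9 of 41174 probes and 6 of 27962 gene names. Of the 9 probes, 7 were tested, covering all genes but *Serping1*, because the test took only probes that some group measured well above background on all its arrays. The cells were *p65*(-/-) mouse embryonic fibroblasts (MEFs) infected with a lentiviral vector, selected with blasticidin, used as pools and starved overnight. They lack the endogenous NF-κB subunit p65 and carried wild type p65, the K314/315R double mutant, the triple mutant KTR (the same lysines and 1 more changed to arginine) or the empty vector pTV. All 4 lines were measured after 3 h of mouse TNFα at 30 ng/ml, on 3 arrays each and on 2 for K314/315R, and wild type cells were also measured without TNFα (0 h) on 3 arrays, which makes 14 one-colour arrays in 5 groups. The wild type line was the only one measured at 0 h, and p65 came from the vector in every line that had it.

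Complement is a cascade of plasma proteins that marks and lyses microbes. C1r and C1s are the proteases of the C1 complex that starts the classical pathway, and C1s cleaves C4 and C2 to form the classical C3 convertase. Factor B (*Cfb*) forms the convertase of the alternative pathway with C3b, a fragment of C3 on which all pathways converge. *Serping1* encodes the C1 inhibitor. The liver makes most of these proteins in plasma, but fibroblasts and other stromal cells also make several of them, and *Cfb*, *C2* and *C4b* lie in the same region of the major histocompatibility complex.

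The arrays of K314/315R shared slide 4, while each of slides 1 to 3 carried the other groups once. Slide and K314/315R line therefore cannot be told apart. Of 9 fibroblast markers, 8 were well above background on all 14 arrays, against 0 of 4 endothelial, 0 of 8 macrophage and 1 of 5 hepatocyte markers. The macrophage markers *Csf1r* and *Cd68* were nevertheless well above background on 13 and 6 of the 14 arrays. Of the fibroblast markers, and named after their values were seen, *Pdgfra* and *Pdgfrb* were lower in pTV than in wild type at 3 h, by log2 differences of 1.77 and 1.99 (adjusted p = 3.55e-06 and 6.13e-06), and *Thy1* was higher there, with −1.19 for wild type over pTV (adjusted p = 8.53e-05), while the summed level of the list was 1043 to 1243 in pTV and 1089 to 1244 in wild type at 3 h. The part of these differences in the members' values was not tested. The summed level of the hepatocyte list, relative to the 75th percentile, was 0.238 to 0.609 in KTR and 0.0954 to 0.165 in the other groups, with albumin (*Alb1*) above background on 0 arrays and *Apob* on all 14, and its part in the KTR values was not tested. *Rela*, the gene of p65, was not absent in pTV cells. Its brighter probe gave a log2 signal of 1.00 to 1.34 in pTV, 0.97 to 1.04 in wild type at 0 h and 0.79 to 1.87 in the other groups. Its dimmer probe gave −2.84 to −2.31 in pTV, below the −2.26 to −1.51 of all arrays with p65 at 3 h (adjusted p = 0.0218 for wild type over pTV), and −2.65 to −2.49 in wild type at 0 h. Where the probes lie relative to the deletion was not determined, so that they check no label.

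All levels are log2 signals minus that of the array's own 75th percentile, so that 0 is the level of that percentile, and levels of different probes are not set against each other. A member counted as changed if its brightest probe passed an adjusted p of 0.05 in limma, over all tested probes, together with a fold over 2 against pTV or over 1.8 in the other comparisons. In bulk arrays, fewer cells that express a gene and less RNA per cell cannot be told apart.

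*C3*, the central component, was high in every line that had p65. Its signal was 7.29, 6.77 and 6.70 in wild type at 3 h, 6.79, 6.28 and 6.45 in KTR, and 7.03 and 7.03 in K314/315R. It was 7.05, 6.78 and 6.62 in wild type at 0 h but 0.10, −0.66 and −0.11 in pTV. The 11 arrays with p65 spanned 1.01 on the log2 scale, and the pTV arrays lay far below all of them. At 3 h the ratio of wild type to pTV cells was 141 for *C3* (log2 fold change 7.14, standard error 0.22, adjusted p = 9.78e-10). The second *C3* probe, which was much dimmer and not above background on any pTV array, gave a difference in the same direction, at least 3.17-fold (adjusted p = 1.96e-07).

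*Cfb* was likewise low without p65, below detection there, and was the member that rose with TNFα. The single *Cfb* probe gave 0.46, 0.18 and −0.23 in wild type at 3 h, −0.62, −1.02 and −0.73 in KTR, and −0.38 and −0.15 in K314/315R. In wild type at 0 h it gave −1.04, −0.95 and −1.77, and in pTV cells −6.62, −6.37 and −6.76. Wild type at 3 h stood above wild type at 0 h without overlap, as it did at 13.5% of all tested probes. None of the 3 pTV arrays was well above background. The difference of wild type over pTV was at least 29.8-fold (adjusted p = 2.28e-09), where the limit of detection on each pTV array stands in for the unmeasured level.

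*C1s*, the effector protease of the C1 complex, was the third member with a lower level in pTV cells. Its signal was 2.70, 2.52 and 2.29 in wild type at 3 h, 1.87, 1.64 and 1.98 in KTR, 2.35 and 2.55 in K314/315R, and 2.66, 2.85 and 2.58 in wild type at 0 h. In pTV cells it was −2.03, −2.23 and −1.99, which was still well above background on all 3 arrays. The fold of wild type over pTV was 24.1 (log2 fold change 4.59, standard error 0.13, adjusted p = 6.71e-10), and the second probe gave 23.1 (adjusted p = 1.67e-07). A probe for the paralog *C1sb*, which was chosen after its values were seen, was above background on 0 of 3 pTV arrays and at least 4.47-fold higher in wild type at 3 h (adjusted p = 1.76e-04). Whether *C1s* and *C1sb* probes detect each other's transcripts is not known from these files.

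**Figure D1:**
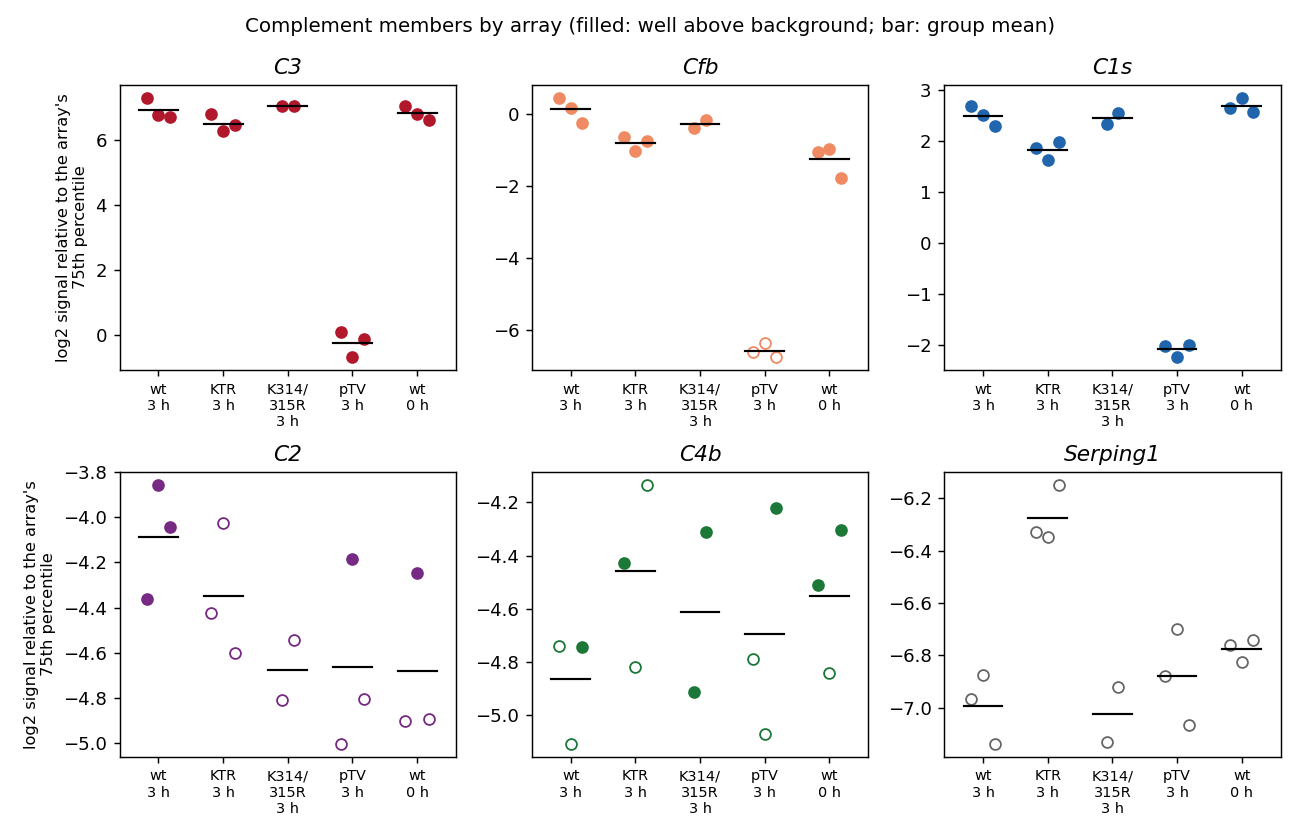
Log2 signal on the same scale as in the text (vertical axis, a different range in each panel) for the brightest probe of each complement member on each of the 14 arrays, by group, with the group mean as a bar and filled points for arrays well above background. *C3*, *Cfb* and *C1s* are low in pTV only, with *Cfb* not above background there, whereas *C2* and *C4b* lie near the limit of detection in all groups and *Serping1* below it on all arrays.

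The 3 remaining members were at the limit of detection. *C2*, which provides the protease of the classical convertase, gave −4.36, −3.86 and −4.04 in wild type at 3 h, well above background on all 3 arrays. It gave −4.42, −4.03 and −4.60 in KTR and −4.81 and −4.54 in K314/315R, above background on none of these 5 arrays. It gave −5.00, −4.19 and −4.80 in pTV and −4.90, −4.25 and −4.89 in wild type at 0 h, above background on 1 array of each. The difference of wild type at 3 h over pTV was 0.58 (adjusted p = 0.155), and the groups overlapped. Within slides 1, 2 and 3 it was 0.64, 0.33 and 0.76, and the adjusted p was 0.00686 with the replicate block, at a fold of 1.49 that stays under the threshold. *C2* entered the test only because wild type at 3 h was above background on all its arrays. Its p-values for a higher level in that group are therefore no fair test. The second *C2* probe was above background on no array.

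*C4b*, one of the mouse C4 genes, gave between −5.11 and −4.13 over all 14 arrays, with 7 of them well above background. Its difference of wild type at 3 h over pTV was −0.17 (95% confidence interval −0.72 to 0.38, adjusted p = 0.752), which leaves room for a change of either sign. The probe of its near-identical neighbour *C4a* was above background on no array, and the probes may share signal. *Serping1* gave −7.14 to −6.15 and was well above background on no array, so that no level can be given for it. The lowest signal that counted as well above background was −4.25 and −4.00 on KTR replicates 2 and 3, higher than on all other arrays. It was −4.60 on KTR replicate 1, within the −5.20 to −4.54 of the other groups.

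Sequences for 2 members that moved together, *C3* and *C1s*, are shown because both genes were far lower in pTV cells. They cover the 250 bases before and the first 50 bases after the RefSeq transcription start in build GRCm38.p6, and *C1s* is listed there as *C1s1*, matched through its accession. The *C3* stretch is chr17:57228087-57228386 and the *C1s* stretch is chr6:124542310-124542609, both on the minus strand. Capitals mark matches to GGGNNNNNCC on either strand, the frame of an NF-κB site, and matches that overlap run together.
C3: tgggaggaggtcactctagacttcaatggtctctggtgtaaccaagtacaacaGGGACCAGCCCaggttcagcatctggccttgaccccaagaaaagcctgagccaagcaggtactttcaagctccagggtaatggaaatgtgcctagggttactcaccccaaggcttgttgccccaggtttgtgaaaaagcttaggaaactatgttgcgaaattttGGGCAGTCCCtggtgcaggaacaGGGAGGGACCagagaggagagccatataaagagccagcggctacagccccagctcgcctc
C1s: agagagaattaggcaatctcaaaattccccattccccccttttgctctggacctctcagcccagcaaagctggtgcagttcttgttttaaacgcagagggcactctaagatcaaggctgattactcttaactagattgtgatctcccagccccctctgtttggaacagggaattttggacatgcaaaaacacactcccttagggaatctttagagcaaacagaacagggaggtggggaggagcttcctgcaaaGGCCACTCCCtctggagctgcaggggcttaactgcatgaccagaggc
The *C3* stretch held 4 such matches, 2 of which overlap, and the *C1s* stretch held 1. Of all 32851 stretches of this length in the RefSeq table, 50.8% held at least 1 match and 6.65% held 4 or more. Neither stretch matched the fuller NF-κB consensus, which 8.46% of all stretches did. TTCNNNGAA, the frame of a STAT site, was also absent from both and present in 8.3% of all. GAAANNGAAA, the frame of an interferon-response element, was absent from both and present in 3.44% of all. A match is a description of these letters and shows no binding, and the lack of one says nothing of sites farther away. *Cfb*, *C2*, *C4b* and *Serping1* are named only.

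Levels with and without p65 were compared for each line, over the same 3 pTV arrays, so that these comparisons are not independent. In wild type at 3 h, 3 of 5 tested members (*C3*, *Cfb* and *C1s*) were called higher than in pTV and 0 lower, against 3.59% higher and 1.46% lower among all tested probes. In KTR the count was again 3 higher and 0 lower (3.32% and 1.36% of all probes). In K314/315R it was 3 and 0 (4.18% and 4.68%). In wild type at 0 h, without TNFα, it was 3 and 0 (3.71% and 1.84%). The same 3 genes were called each time. The median log2 fold change of the 5 tested members took *Cfb* at its fitted value. It was 4.59 in wild type, 3.91 in KTR and 4.53 in K314/315R at 3 h, and 4.78 in wild type at 0 h. The medians over all tested probes were −0.03, 0.02, −0.01 and 0.00 in the same order.

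Each line gave its own size for the 3 genes. *C3* was 106-fold higher than in pTV in KTR (adjusted p = 1.97e-09) and 153-fold in K314/315R (adjusted p = 2.99e-09). In wild type cells without TNFα, *C3* was already 132-fold higher (adjusted p = 3.84e-09). *Cfb* was at least 15.7-fold higher in KTR (adjusted p = 1.21e-08), at least 22.6-fold in K314/315R (adjusted p = 1.61e-08) and at least 11.4-fold in wild type at 0 h (adjusted p = 3.6e-08). *C1s* was 15.1-fold higher in KTR (adjusted p = 3.41e-09), 23.2-fold in K314/315R (adjusted p = 2.99e-09) and 27.5-fold in wild type at 0 h (adjusted p = 2.28e-09). pTV cells were measured only after TNFα, so that their level at 0 h is not known.

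**Figure D2:**
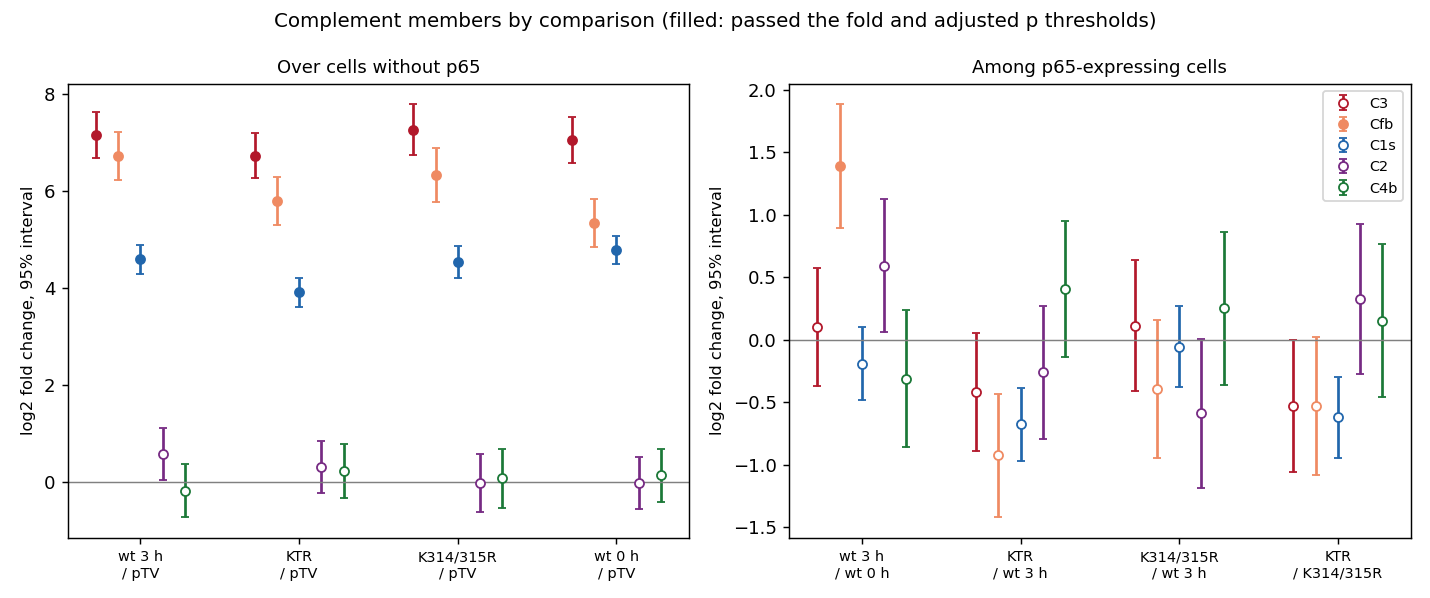
Log2 fold change with its 95% confidence interval (vertical axis) for the 5 tested members in the 4 comparisons over pTV (left) and the 4 comparisons among cells with p65 (right, on a narrower scale), with filled points where the thresholds were passed. On the left *C3*, *Cfb* and *C1s* lie between 3.91 and 7.26 while *C2* and *C4b* lie near 0. The *Cfb* points there are fitted against pTV arrays below detection, so that only the "at least" folds of the text hold for them. On the right *Cfb* in wild type 3 h over 0 h is the single filled point.

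TNFα changed 1 of the 5 tested members in wild type cells, *Cfb*, which rose 2.62-fold after 3 h (log2 fold change 1.39, standard error 0.23, adjusted p = 0.00419). Among all tested probes, 1.12% were called higher and 0.424% lower. On slides 1, 2 and 3 the *Cfb* difference was 1.50, 1.14 and 1.54. *C3* differed by 0.10 (95% confidence interval −0.37 to 0.57, adjusted p = 0.888), whose upper bound lies under a 1.8-fold rise but which leaves room for smaller changes. *C1s* differed by −0.19 (−0.48 to 0.10, adjusted p = 0.535). *C2* was 1.51-fold higher with TNFα but near the limit of detection, and did not pass (unadjusted p = 0.0323, adjusted p = 0.235, and 0.0136 with the replicate block). These p-values are no fair test either, since *C2* was tested only through its detection in wild type at 3 h. Within slides 1, 2 and 3 *C2* differed by 0.54, 0.39 and 0.85. *C4b* differed by −0.31 (adjusted p = 0.615). *Cfb* and *C3*, which form 1 convertase, thus gave different values under TNFα, though the difference between the 2 responses was not tested.

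In KTR compared to wild type cells at 3 h, 0 of 5 tested members passed, against 0.0271% of probes called higher and 0.14% called lower. *Cfb* was 1.90-fold lower (log2 fold change −0.93, standard error 0.23, unadjusted p = 0.00154, adjusted p = 0.164), with no overlap between the 3 arrays of KTR and the 3 of wild type. The call depended on how the slide entered the fit. The adjusted p was 0.0502 with the replicate block, 0.0483 with slide as a fixed block over slides 1 to 3, and 0.033 with slide as a random block, where *Cfb* passed in the latter 2. It was 0.348 when only the 6 arrays compared were fitted. Within slides 1, 2 and 3 *Cfb* differed by −1.08, −1.20 and −0.50.

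*C1s* was 1.60-fold lower in KTR (log2 fold change −0.68, standard error 0.13, adjusted p = 0.0699) without overlap of the arrays, a fold below the threshold of 1.8 whatever its p. Its second probe gave −0.60 (adjusted p = 0.481), also without overlap. The difference of *C1s* within slides 1, 2 and 3 was −0.83, −0.89 and −0.31. *C3* gave −0.42 (95% confidence interval −0.89 to 0.06, adjusted p = 0.613) with overlapping arrays, and −0.50, −0.49 and −0.25 within slides. All 9 of these within-slide differences were negative, and slide 3 gave the smallest for each of the 3 genes. The 3 genes were read on the same arrays, so that these are not 9 independent values. The share of all tested probes with 1 sign on all 3 slides was not computed. Every KTR array was below every wild type array at 5.06% of all tested probes, which *Cfb* and *C1s* met and *C3* did not. *C2* gave −0.26 (adjusted p = 0.802) and *C4b* 0.40 (adjusted p = 0.689). Within slides 1, 2 and 3 *C2* differed by −0.06, −0.17 and −0.56 and *C4b* by 0.31, 0.29 and 0.61.

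**Figure D3:**
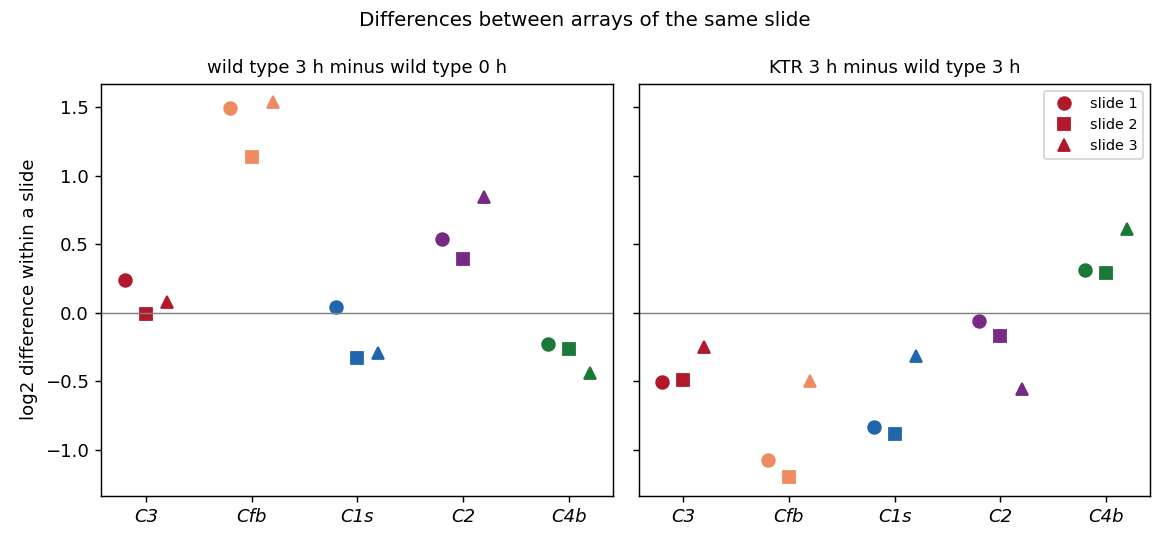
Log2 difference (vertical axis) between 2 arrays of the same slide for the brightest probe of each tested member, for wild type at 3 h minus wild type at 0 h (left) and KTR minus wild type at 3 h (right), with 1 symbol per slide. On the left *Cfb* is positive on all 3 slides, at 1.14 to 1.54. On the right *C3*, *Cfb* and *C1s* are negative on all 3 slides, from −1.20 to −0.25. There *C2* is also negative on all 3, from −0.56 to −0.06, and *C4b* is positive, from 0.29 to 0.61.

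In K314/315R compared to wild type cells at 3 h, 0 of 5 tested members passed, against 0.167% called higher and 1.03% called lower among all tested probes. *C3* differed by 0.11 (95% confidence interval −0.41 to 0.64, adjusted p = 0.859), *Cfb* by −0.40 (−0.95 to 0.15, adjusted p = 0.46) and *C1s* by −0.06 (−0.38 to 0.27, adjusted p = 0.89). The intervals of *C1s* and *C3* lie above a 1.8-fold decrease, while that of *Cfb* reaches past it. *C2*, above background on neither array of this line, gave −0.59 (−1.18 to 0.01, adjusted p = 0.296), and *C4b* gave 0.25 (adjusted p = 0.703).

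The mutants were also compared with each other, where 2.06% of all probes were called higher in KTR and 0.492% lower. None of the 5 tested members passed both thresholds. *C1s* passed the adjusted p alone, at 1.54-fold lower in KTR (log2 fold change −0.62, standard error 0.15, adjusted p = 0.0348). That adjusted p was 0.123 with slide as a random block, 0.194 when only these 5 arrays were fitted and 0.235 for the second *C1s* probe, and between 0.0327 and 0.222 with single arrays left out. *Cfb* was −0.53 (adjusted p = 0.255) and *C3* −0.53 (adjusted p = 0.232). For all 3 genes every KTR array lay below both K314/315R arrays, as it did at 12.2% of all tested probes, and slide 4 held both arrays of the latter line.

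A list of 44 further genes of the pathway on the array, from C1q to the terminal components, receptors and regulators, had 16 with a tested probe. *C1sb*, described above, is in none of the counts of these genes. Its fitted value passed both thresholds, as higher, in each of the 4 comparisons over pTV. In wild type over pTV at 3 h, 2 of the 16 were called higher and 2 lower, against 3.59% and 1.46% of all tested probes, with a median log2 fold change of 0.06, against −0.03 over all tested probes. The called higher genes were *C1r*, the protease that activates C1s (2.82, adjusted p = 5.86e-07), and clusterin (*Clu*), which binds the terminal complex (1.05, adjusted p = 5.76e-04). The called lower genes were factor I (*Cfi*), the protease that inactivates C3b (−1.66, adjusted p = 0.0112), and *Gpr77*, a receptor for C5a (−1.71, adjusted p = 5.72e-06). Both proteases of C1, *C1r* and *C1s*, were therefore higher with p65, and the second *C1r* probe gave 2.71 (adjusted p = 1.12e-06).

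The other comparisons over pTV gave 1 higher and 2 lower of the 16 in KTR (3.32% and 1.36% of all tested probes), 2 and 2 in K314/315R (4.18% and 4.68%), and 4 and 2 in wild type at 0 h (3.71% and 1.84%). *C1r* was called in each, at 2.50 in KTR (adjusted p = 2.48e-06), 2.85 in K314/315R (adjusted p = 2.12e-06) and 2.87 in wild type at 0 h (adjusted p = 7.56e-07). *Cfi* and *Gpr77* were the 2 called lower each time, with *Cfi* at least 4.59-fold lower in K314/315R (adjusted p = 1.53e-04). *C1sb*, not counted here, was at least 1.24-fold higher in KTR (adjusted p = 0.0136) and 2.80-fold in K314/315R (adjusted p = 0.00137). In wild type at 0 h it was at least 4.47-fold higher (adjusted p = 1.66e-04). Among the 16, the largest rises in wild type at 0 h over pTV were those of *C1r*, *C8g* and *C1rl*. *C8g*, a subunit of the terminal complex, gave 1.36 (adjusted p = 7.68e-05), and *C1rl*, a gene related to *C1r*, gave 1.17 (adjusted p = 0.0103). With the settings used throughout, none of the 16 passed both thresholds for TNFα, for KTR or K314/315R over wild type, or between the mutants. *Cfi* passed in K314/315R over wild type and between the mutants under some alternatives, given in the last section. Properdin (*Cfp*), which stabilises the alternative convertase and was named here after its values were seen, was well above background on all 14 arrays, with mean levels of −0.32 in wild type at 3 h and −0.22 in pTV.

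**Figure D4:**
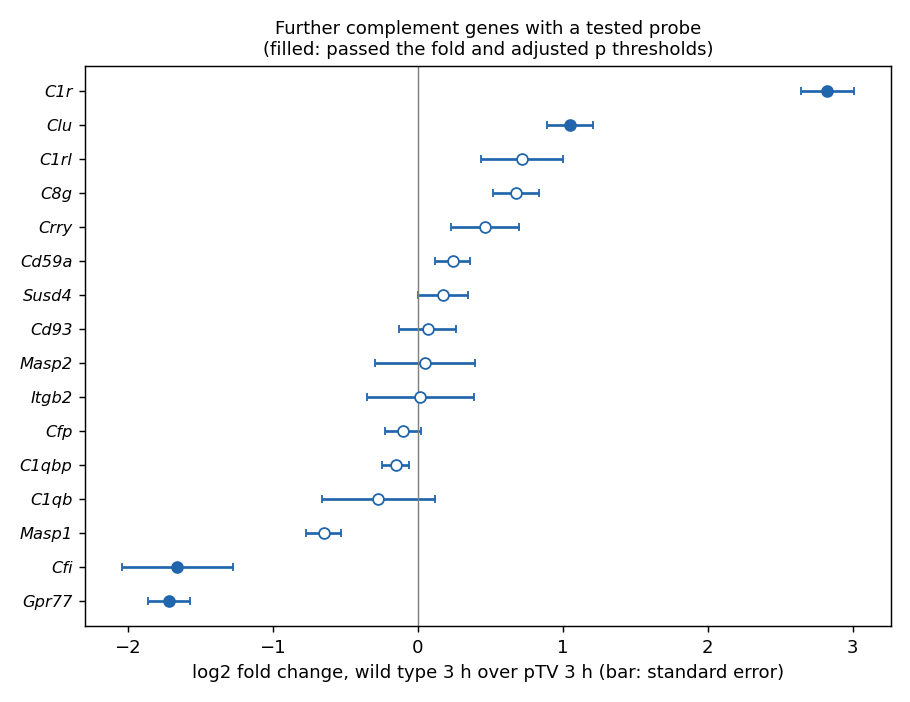
Wild type over pTV at 3 h as log2 fold change with its standard error (horizontal axis) for the 16 further complement genes counted in the text, without *C1sb*. Genes are ordered by value, with filled points where the thresholds were passed. *C1r* at 2.82 is the highest, and *Gpr77* at −1.71 and *Cfi* at −1.66 are the lowest.

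The patterns of the members over the 14 arrays were described by Pearson correlation with the 21589 tested probes that had a value on every array. These arrays share 5 conditions and the low pTV values, so that they are not independent points. *C3* and *C1s* had r = 0.991, *C3* and *Cfb* 0.981, and *Cfb* and *C1s* 0.966. The 3 probes of other names most like *C3* were *D12Ertd647e* (0.997), *Ccl8*, a chemokine (0.996), and *Saa3*, an acute-phase protein (0.994). Those most like *Cfb* were *Psmb10*, a subunit of the immunoproteasome (0.993), *Saa3* (0.993) and *Saa1* (0.992). Those most like *C1s* were the second *C3* probe (0.992), *Oas1c* (0.991) and a transcript listed as *NAP015047-001* (0.99). *C2* and *C4b*, near the limit of detection, had −0.54 with each other and lower values with their nearest probes. For *C2* these were *BC060631* (0.83), *Vcpip1* (0.826) and *Wfdc1* (0.818), and for *C4b* they were *Cnih2* (0.886), *Hist1h2bk* (0.845) and *Sept5* (0.843).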

How the data were processed

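Expression was measured on 14 one-colour Agilent Whole Mouse Genome arrays (Cy3), read with Agilent Feature Extraction (9.1 per the submitters' processing notes, 9.1.1.1 and 9.1.3.1 per the file headers). The authors deposited for each spot an intensity corrected for background but not scaled between arrays, and a values file of intensities rescaled by 1 factor per array. Here outlier spots (1 to 326 per array) were left out, the mean over a probe's other spots was taken, and log2 values were set relative to the array's 75th percentile (967 to 1442). Of 41174 probes, 22172 were tested. Member spots were never saturated. A gene was counted by its brightest tested probe.

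All groups entered 1 limma 3.58.1 fit (R 4.3.3; files read with version 1.17.8 of data.table), with two-sided p-values adjusted by Benjamini-Hochberg across the tested probes. The authors used Rosetta Resolver, whose error model was not repeated here. "At least" folds set the mean of the bright group against that of the dim group, with each dim array at the higher of its own signal and its lowest signal well above background. Simulated arrays for wild type over pTV held 21589 probes. On them the adjusted p alone recovered 97 of 100 log2 changes of 2 and 72 of 100 log2 changes of 1. The fold threshold was not part of this count, and the median estimate for log2 changes of 1 was 0.997, under that threshold. Of 176 simulated probes called, 7 were false. Members, the pathway list and the markers were chosen with earlier results of these data known, and 1 gene of the pathway list is not reported here. The text names all members, up to 3 called pathway genes per direction and comparison, and the 3 probes most like each member. Files held 0 columns of other samples. The number of arrays limits the precision.

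Replicate numbers are also slide numbers on slides 1 to 3. There deviations from the group means correlated at 0.308 to 0.613 in the 18 same-number pairs and at −0.510 to 0.0954 in the 36 others, so that the numbers pair these arrays. For K314/315R pairing was not shown (8 pairs, −0.101 to 0.411). RNA was isolated from separate cultures on different days per the labels. Alternatives were the background correction, normalization, filter, block, arrays fitted, p, probe and each array left out.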

Additional observations from a re-analysis of the deposited data

How the results depend on the processing

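Over the 32 member differences recomputed (*C3*, *Cfb* and *C1s* in all 8 comparisons, *C2* and *C4b* in 4), 769 of 789 values under the alternatives kept both direction and call. Many of these could not change direction, since leaving out an array of a group not compared, among others, leaves the fold change as it was. The calls of *C3* and *C1s* over pTV held under every alternative run. Members called in KTR over wild type went from 0 to 1 (*Cfb*) with no filter on dim probes, the unadjusted p, slide as a random block and slide as a fixed block on slides 1 to 3, the last chosen after seeing the data. With the replicate block the count was 0 for KTR over wild type and 1 for TNFα, and it changed the call of none of the 32 differences. Members called for TNFα went from 1 to 0 with normexp and, since *Cfb* was then not tested, when only probes measured above background on each of the 14 arrays were kept.

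Normexp on all spots left the 5th percentile at 1743 on wild type 3 h replicate 1 and 605 on pTV replicate 2, against 61.5 to 192 elsewhere. There *Cfb* lost its call in KTR over pTV (2.29, adjusted p = 0.0626), wild type 0 h over pTV (1.84, adjusted p = 0.133) and under TNFα (1.17, adjusted p = 0.594). Without spots whose background exceeded their signal (0 to 65 per array), chosen after seeing the data, the 5th percentile was 61.5 to 75.8, and *Cfb* was called in all 3 (3.13, 2.71 and 1.22). Uncalled values turned sign as follows. With normexp, K314/315R over wild type gave 0.22 for *C1s* and −0.46 for *C4b*, TNFα gave −0.23 for *C3* and 0.68 for *C4b*, and *C4b* gave −0.43 in KTR over wild type and 0.068 in wild type over pTV. The second probe gave 0.0050 for *C1s* and −0.26 for *C3* in K314/315R over wild type. With single arrays left out, *C1s* ranged from −0.16 to 0.045 and *C4b* from −0.051 to 0.55 in K314/315R over wild type, *C3* from −0.084 to 0.22 under TNFα, and *C4b* from −0.36 to 0.067 in wild type over pTV. The causes of the other changes were not tested. Pathway genes called in the 4 comparisons over pTV fell to 1 (from 3 to 6) with normexp on all spots, and in wild type 0 h over pTV to 2 without the spots named. With no filter they rose from 3 to 5 in KTR over pTV. They rose from 0 to 2 in KTR over wild type (*Daf2* and *Cd59b*) and from 0 to 3 between the mutants (also *Itgax*). *Daf2* and *Cd59b* were well above background on 1 array each and *Itgax* on 2, so that no rise in KTR can be read for them. Without the filter the median over all probes was 0.15 in KTR over wild type and 0.27 in KTR over K314/315R. With the filter these medians were 0.06 and 0.03. *Cfi* passed in K314/315R over wild type (adjusted p = 0.00488) and between the mutants (adjusted p = 0.0075) with the replicate block, and with the unadjusted p. That block pairs the K314/315R arrays by number, although pairing was not shown for them. With the limit of detection in K314/315R, *Cfi* was at least 1.46-fold lower there than in wild type, a bound under the threshold of 1.8. Leaving out 1 array gave at most 1 (*Cfi* or *Cd93*) in these 2 comparisons. *C2*, *C4b* and *Serping1* lay too near the background for a difference to be read.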
